A study of Caenorhabditis elegans with 2 samples.

Results

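The tricarboxylic acid cycle enzymes described here are 10 genes of Caenorhabditis elegans: cts-1, aco-2, idha-1, ogdh-1, dlst-1, sucl-1, sucl-2, fum-1, mdh-2 and pyc-1. They were found in a deposited list of 1005 chromatin immunoprecipitation peaks by gene name, with current symbols and older locus names both accepted. Of the 10 genes, 6 were named at a peak, each at 1 peak, and 4 were not. Of these 6, mdh-2 was counted from a peak that the list calls mdh-1, and without it the count was 5. In both groups the worms were wild type and grew under spg-7(RNAi), which knocks down a protease of the mitochondrial inner membrane, so the treatment did not differ between them. Parent adults were bleached at day 3, and their eggs were raised under this RNAi and collected as L4 larvae after about 48 h. One library was prepared with an antibody against ATFS-1, a basic leucine zipper regulator of the response to unfolded proteins in mitochondria. The other came from the same kind of whole-worm lysate without antibody. Each condition had 1 library, so no value below has a replicate check. Whole worms mix all tissues, and a peak list holds no expression levels, so the lysate could not be checked against tissue markers.

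The cycle runs in the mitochondrial matrix. It oxidises acetyl-CoA to carbon dioxide and passes the electrons to the respiratory chain, and its intermediates feed amino acid, lipid and glucose synthesis. Its enzymes are encoded in the nucleus and imported. ATFS-1 is itself imported into healthy mitochondria, and when import slows it accumulates in the nucleus.

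After removal of duplicate tags the antibody library held 10992796 tags and the no-antibody library 10583049, per the file header. Tag counts, peak lengths, summits, fold enrichments, scores and false discovery rates are the values that the authors' peak caller wrote. Fold enrichment is its ratio of antibody signal over the expected level from the no-antibody library. The score was read as log10 of its p-value with the sign turned, times 10. The list had a median fold of 3.26 (quartiles 2.75 and 4.04), a median of 325 antibody tags and a median length of 1555 bp. Intervals on tags are exact 95% Poisson intervals and cover counting error only. Coordinates are printed as the list has them; their genome build is not stated in the labels or the header.

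Going round the cycle, 6 of 8 steps had at least 1 gene at a peak and 2 had none. The steps with a peak were citrate synthase, aconitase, the 2-oxoglutarate dehydrogenase complex, succinyl-CoA synthetase, succinate dehydrogenase and, under its older name, malate dehydrogenase. Without the peak called mdh-1 the count was 5 of 8. The steps without a peak were isocitrate dehydrogenase and fumarase. The 10 genes themselves cover 5 of the 6 steps, and the other, succinate dehydrogenase, comes from sdha-1, which is not among them.

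**Figure D1:**
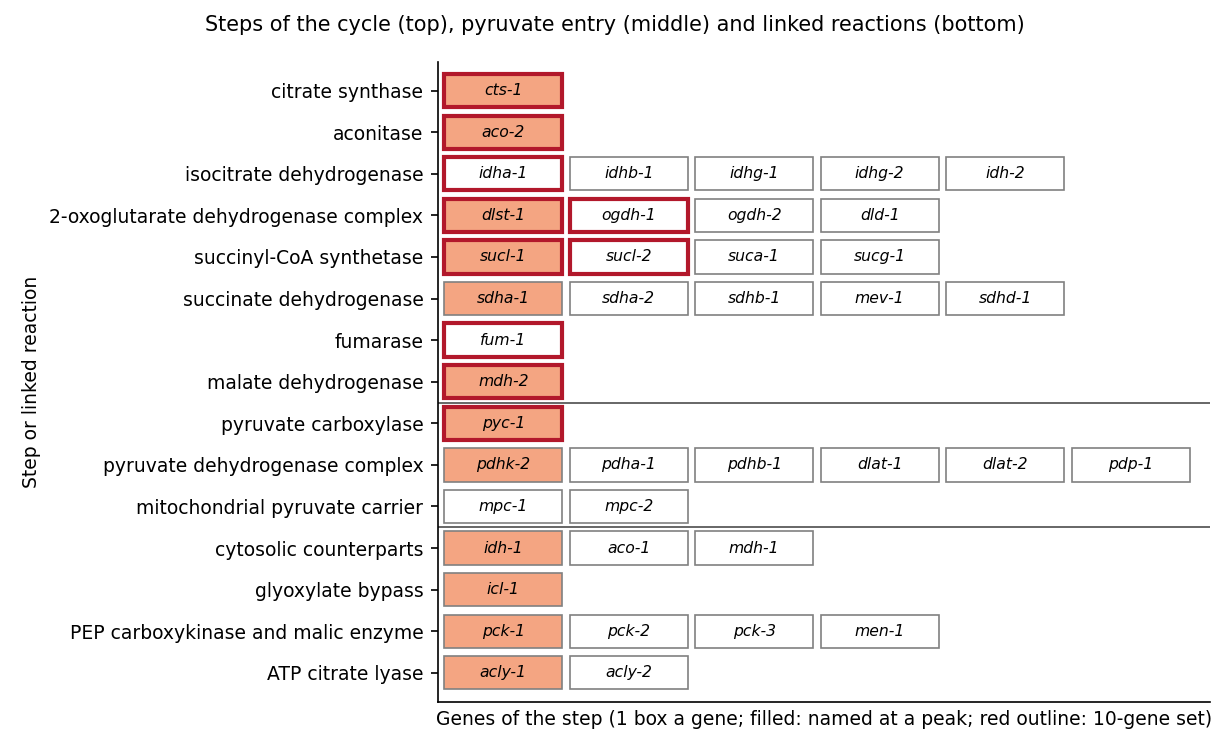
Each line is a step of the cycle, a route of pyruvate entry or a linked reaction, and each box is a gene; filled boxes are genes named at a peak and red outlines mark the 10 genes. The lines for isocitrate dehydrogenase and fumarase hold no filled box, and each larger cycle complex that has a filled box has 1.

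The multi-gene enzymes of the cycle that had a peak each had it at 1 gene. Of 4 genes of the 2-oxoglutarate dehydrogenase complex, only dlst-1, the succinyltransferase core, was named. The dehydrogenase subunit gene ogdh-1, its relative ogdh-2 and dld-1, the lipoamide dehydrogenase, were not. Of 4 genes of succinyl-CoA synthetase only sucl-1, an alpha subunit, was named. The second alpha-subunit gene sucl-2 and the beta-subunit genes suca-1 and sucg-1 were not. Of 5 succinate dehydrogenase genes only sdha-1, the flavoprotein subunit, was named. None of 5 mitochondrial isocitrate dehydrogenase genes was named, neither the NAD-dependent idha-1, idhb-1, idhg-1 and idhg-2 nor the NADP-dependent idh-2. For the 4 NAD-dependent genes the order of genes along the chromosome left no other peak between the nearest named ones. Some of those named genes are close: sym-4 is next to idhb-1, and only 1 gene lies between pan-1 and idhg-1. Whether the peaks of sym-4 and pan-1 reach idhb-1 or idhg-1 was not analysed. For idh-2 an unnamed peak of 5.13-fold with 372 tags lay in the interval, which also holds suca-1 and the cytosolic aconitase gene aco-1. Whether it lies at any of these was not analysed here.

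Over all 22 genes of the cycle, 6 were named at a peak (27.3%). Among all 19971 protein-coding nuclear genes the share was 4.56% with the same names matched, and 4.53% with names of the gene table only, by which 5 of the 22 genes of the cycle were named. Older names were searched only for genes of the lists described here. Those of other genes stayed unmatched, so both shares over all genes may be too low. For the 10 genes the share was 60%, but these were chosen with the peak list known, so that share says nothing of its own. The 22 genes include all of the 10 but pyc-1, and outside the 10 only sdha-1 was named. The share of the 22 thus rests largely on the same choice. No test was made of either share.

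Citrate synthase, the enzyme that joins acetyl-CoA to oxaloacetate, is encoded by cts-1. Its peak lay on chromosome III, 10214104 to 10217270, and held 775 antibody tags (interval 721.4 to 831.5). The fold enrichment was 2.96, lower than the median of the list, while 88.1% of peaks held fewer tags. Its score was 369.55 and its false discovery rate 5.41%, the lowest rate of the 6 peaks.

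Aconitase turns citrate into isocitrate, and its mitochondrial form is encoded by aco-2. The aco-2 peak (chromosome III, 7972209 to 7977743) held 1451 tags (interval 1377 to 1528). It had the highest fold, tag count, score and length of the 6 peaks, with a fold of 4.69 (rank 167 of 1005), a score of 1178.58 (rank 43) and a length of 5535 bp (rank 18). It also carried a false discovery rate of 11.11%, the highest of any peak in the list and the only one at that value. In this list the rate did not fall steadily as the score rose. Peaks that scored close to aco-2 also had high rates, such as 10.87% for nhr-3 (score 1154.04) and 10.64% for cri-3 (score 1150.5).

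The dlst-1 peak, listed as W02F12.5, was among the weakest of the whole list. It lay on chromosome V, 6708691 to 6709692, and held 177 tags (interval 151.9 to 205.1), where the fewest in any peak were 176. Only 2 peaks held fewer tags. The fold was 2.89, the score 55.92 and the false discovery rate 7.72%. The smallest score in the list was 50.06, and 74 peaks scored lower than dlst-1.

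The sucl-1 peak, listed as C05G5.4, was as short but had a higher fold. It lay on chromosome X, 14753136 to 14754133, and held 182 tags (interval 156.5 to 210.4). Its fold of 3.96 was above that of 72.8% of peaks, yet its score of 60.44 ranked only 893. Its false discovery rate was 7.71%.

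Malate dehydrogenase regenerates oxaloacetate, and mdh-2 is its mitochondrial form in the gene table. The list has a peak called mdh-1 on chromosome III, 6605737 to 6608573, with 580 tags (interval 533.8 to 629.2). Its fold was 2.61, its score 207.67 and its false discovery rate 7.64%. The RefSeq gene table (WBcel235) places the gene now called mdh-1 on chromosome V and mdh-2 on chromosome III. In the order of genes along chromosome III the peak fell between those named for C09E7.7 and prk-1, an interval that holds mdh-2. That interval holds 7 genes before mdh-2 and 65 after it, so the order does not single mdh-2 out. The reading as mdh-2 rests on the name and the chromosome together, and was made after the list was seen.

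Pyruvate carboxylase makes oxaloacetate from pyruvate and so refills the cycle. Its gene pyc-1 had a peak on chromosome V, 11818181 to 11822651, with 842 tags (interval 786.1 to 900.8). The fold of 2.52 was the lowest of the 6, and 11.7% of all peaks had a lower one. Its score was 246.92 and its false discovery rate 7.76%.

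The order of the 6 peaks by fold was aco-2, sucl-1, cts-1, dlst-1, mdh-2 and pyc-1, with a 1.86-fold span between first and last. By tags it was aco-2, pyc-1, cts-1, mdh-2, sucl-1 and dlst-1, with a span of 8.2-fold. Only aco-2 reached 4-fold, a level that 26.4% of all peaks reached. Of the 6 folds 2 were above the list's median and 4 below it, whereas 4 of the 6 tag counts and 4 of the 6 scores were above their medians. None of the 6 had a rate of false discoveries at or under 5%, as 3.18% of all peaks did. Across the 1005 peaks tags followed peak length closely (Spearman's rho 0.96) and fold less so (0.43 with tags). These are descriptions over peaks of the same pair of libraries.

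**Figure D2:**
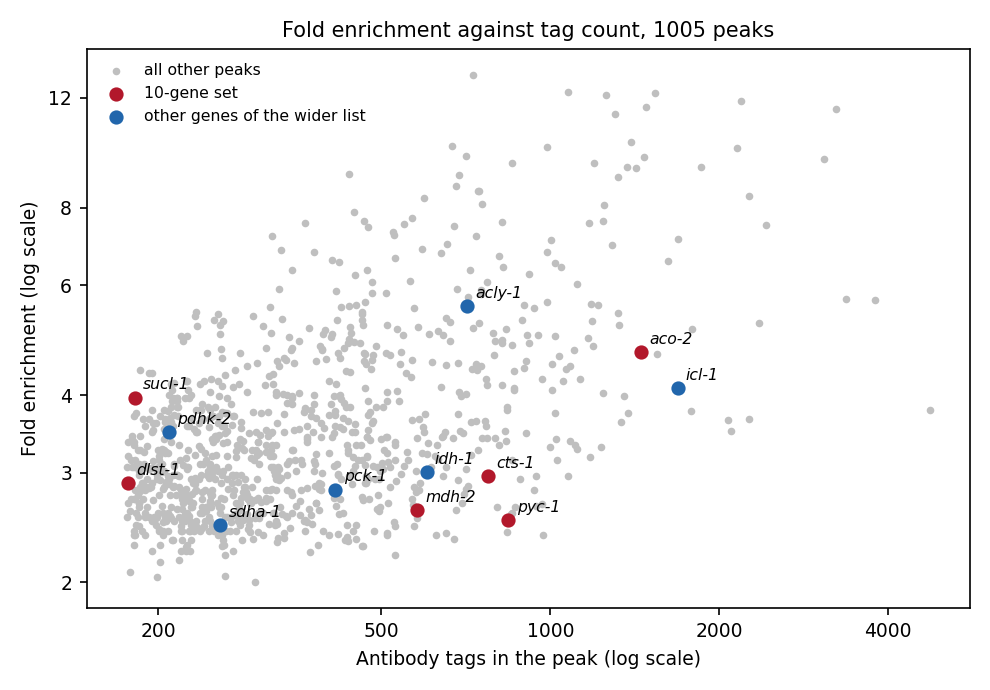
Fold enrichment (vertical, log scale) against antibody tags (horizontal, log scale) for the 1005 peaks, with the peaks of the 10 genes in red and those of the wider list in blue. cts-1, mdh-2 and pyc-1 lie along the lower edge at 580 to 842 tags, aco-2 lies further right at 4.69-fold, and sucl-1 and dlst-1 lie at the left edge.

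Per kb of peak, the antibody tags differed much less. The aco-2 peak held 262 tags per kb (interval 249 to 276) and the cts-1 peak 245 (228 to 263). mdh-2 held 204 (188 to 222), pyc-1 188 (176 to 201), sucl-1 182 (157 to 211) and dlst-1 177 (152 to 205). The intervals of aco-2 and cts-1 overlapped each other and no other of the 6, while the remaining 4 all overlapped one another. The median over all peaks was 204 tags per kb (quartiles 185 and 236), so aco-2 and cts-1 lay above the upper quartile, mdh-2 and pyc-1 between the quartiles, and sucl-1 and dlst-1 below the lower quartile.

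**Figure D3:**
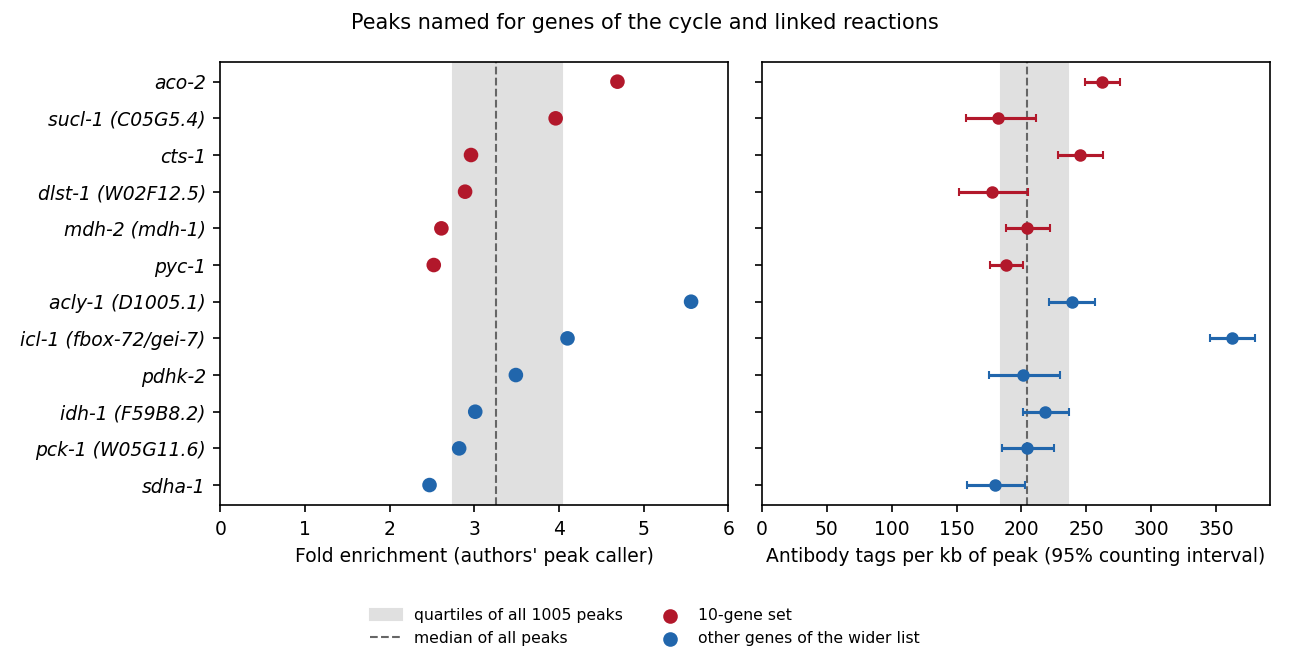
Fold enrichment (left) and antibody tags per kb with exact 95% Poisson intervals (right) for the 12 peaks of the wider list, the 10 genes in red and the others in blue; names in brackets are those of the list. Grey bands run between the quartiles of all 1005 peaks and dashed lines mark their medians, and aco-2 is above both bands while mdh-2 and pyc-1 are below the band for fold.

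In extent the peaks differed widely. Those of aco-2 (5535 bp), pyc-1 (4471 bp), cts-1 (3167 bp) and mdh-2 (2837 bp) were broad, and 4 of 6 reached 2000 bp, against 31.8% of all peaks. Those of dlst-1 (1002 bp) and sucl-1 (998 bp) were close to the shortest in the list, 984 bp. Relative to the length of the gene in the gene table, the broad peaks were 1.52 times as long for aco-2, 1.7 for cts-1, 1.81 for mdh-2 and 0.976 for pyc-1. For dlst-1 and sucl-1 the ratios were 0.49 and 0.485, and the median over 749 peaks with a single matched name was 0.555. The genes themselves had a median length of 2051 bp for the 6 named at a peak and 2059.5 bp for the 4 that were not. Over all protein-coding nuclear genes the median was 2006 bp, and for those named at a peak it was 2890 bp.

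The summit, the position of highest signal, stood at 82.5% of the way through the cts-1 peak, at 34.4% through aco-2 and at 22% through pyc-1. For mdh-2, dlst-1 and sucl-1 it was nearer the middle, at 55.4%, 55% and 44.2%. Over all peaks the quartiles were 40.6% and 61.5%, so the 3 longest peaks had their summits outside that range and the 3 shorter ones inside it. That range pools peaks of all lengths, and peaks of like length were not compared separately. The summit positions run with the coordinates of the list and not with the direction of the gene, which was not used here.

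**Figure D4:**
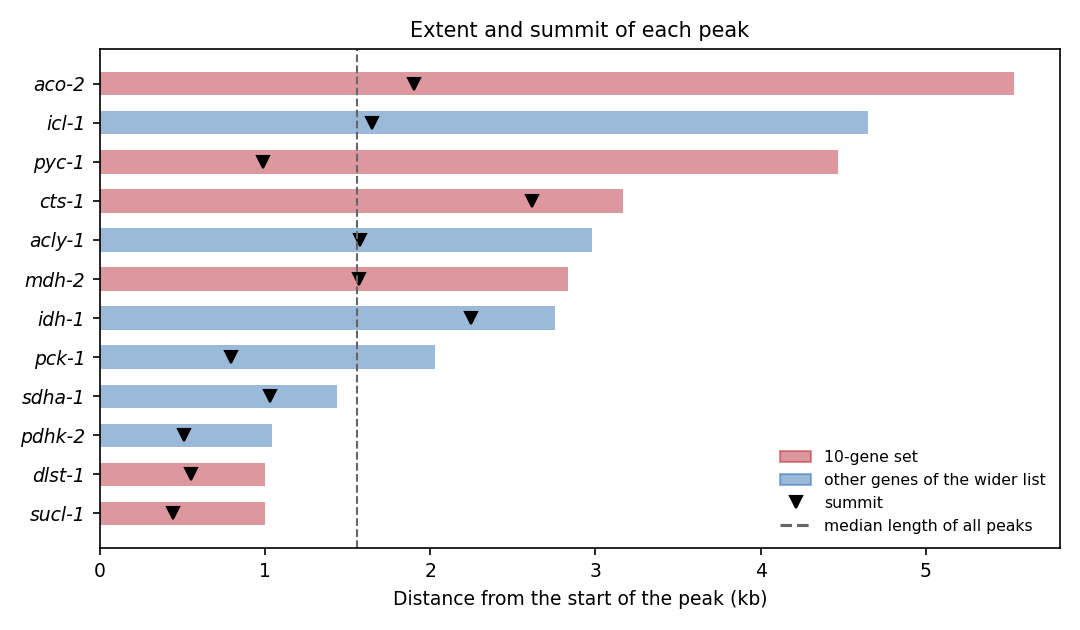
Each bar is a peak drawn from its start to its end in kb, with a triangle at its summit and a dashed line at the median length of all peaks; red bars are peaks of the 10 genes and blue bars those of the wider list. Summits of pyc-1 and aco-2 lie towards the start of the peak and that of cts-1 towards its end.

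All 6 peaks carried a single gene name, as 82.7% of all peaks did. They were spread over chromosomes III (3 peaks), V (2) and X (1), and 5 of the 10 genes lie on III. The nearest other peak was 3793 bp away for pyc-1, next to a peak named D2023.6, and between 31418 and 72662 bp away for the other 5. None of the 6 genes thus shared its peak with another named gene.

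The 4 genes without a peak were sucl-2, idha-1, fum-1 and ogdh-1. The list also holds 74 peaks without a gene name, so the order of genes was used to ask whether an unnamed peak could lie at one of them. For sucl-2, idha-1 and fum-1 no further peak lay between the nearest named peaks on either side. These were zip-2 and rab-18 for sucl-2, lin-28 and egg-6 for idha-1, and eco-1 and cgh-1 for fum-1. Only 2 genes lie between fum-1 and cgh-1. For ogdh-1, flanked by F29B9.11 and timm-17B.1, 2 peaks in between had no place in the order, an unnamed one of 5.54-fold with 317 tags and one named for the pseudogene E04A4.3 of 7.56-fold with 365 tags. Whether the unnamed one lies at ogdh-1 was not analysed here. Of the 29 genes of the wider list without a peak, 16 had no such peak in their interval and 13 had at least 1, unnamed or named for a gene without a place in the order. For sdhb-1 it was a peak named tag-165, of 6.8-fold with 986 tags. For sdha-2 it was an unnamed peak of 3.73-fold with 336 tags. For mpc-1 there was an unnamed one of 2.92-fold with 685 tags and one named pqn-45 of 4.36-fold. A gene without a peak is one whose signal did not pass the caller's threshold or whose peak is not in this list, so binding there is not excluded.

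Pyruvate entry beyond pyc-1 had a peak at 1 more gene, pdhk-2, the kinase that switches off the pyruvate dehydrogenase complex. Its peak held 209 tags (interval 181.6 to 239.3) at 3.49-fold on chromosome III. None of the catalytic genes pdha-1, pdhb-1, dlat-1 and dlat-2 was named, nor the phosphatase gene pdp-1 or the pyruvate carrier genes mpc-1 and mpc-2. An unnamed peak of 8.67-fold lay among the genes between mai-2 and unc-33, an interval that also holds pdhb-1. A peak of 2.46-fold called only "decarboxylase" lay in an interval of the gene order that holds mpc-2.

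Among reactions that draw on the cycle or bypass it, 4 of 10 genes were named at a peak, 1 of them under an older name. With names of the gene table only it was 3 of 10. The share over all protein-coding nuclear genes was 4.56%, or 4.53% with names of the gene table only. The highest fold of the wider list, 5.56 with 711 tags, was at acly-1, an ATP citrate lyase gene that turns exported citrate back into acetyl-CoA. The most tags, 1686, were at the peak called fbox-72 and gei-7, an older symbol of icl-1, the glyoxylate bypass enzyme that skips the carbon-releasing steps. That peak had a fold of 4.1, a score of 2118.83 (rank 17) and 362 tags per kb (rank 17). It carries 2 names, and fbxb-72 is the neighbour of icl-1 in the gene table, so its tags cannot be given to either gene alone. The cytosolic NADP-dependent isocitrate dehydrogenase gene idh-1 had 602 tags at 3.01-fold, and pck-1, a phosphoenolpyruvate carboxykinase gene, had 414 at 2.82-fold. Without a peak were aco-1, the current mdh-1, pck-2, pck-3, men-1 and acly-2. sdha-1, the only succinate dehydrogenase gene named, had 258 tags (interval 227.5 to 291.5) at 2.47-fold, the lowest fold of the 12.

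Set beside neighbouring pathways, the peaks of the 10 genes had a median fold of 2.92 and a median of 677.5 tags. Of 20 glycolytic genes 11 were named (55%), at 11 peaks with a median fold of 4 and 638 tags. Of 47 oxidative phosphorylation genes 12 were named (25.5%), at 12 peaks with medians of 3.45 and 479.5 tags. Among all protein-coding nuclear genes the share named was 4.56%. The 47 were picked by gene symbol, mostly by its start (such as nduf-, nuo-, ucr-, cox- and atp-). Succinate dehydrogenase genes and any subunit genes under other symbols are therefore not among them. Nor was each of the 47 checked to encode a subunit, and cox-10, cox-11 and cox-15 are among those counted. Over all 1005 peaks the medians were 3.26 and 325. Per kb of peak the order was another. The median was 196 tags per kb for the 10 genes, 243 for glycolysis, 205 for oxidative phosphorylation and 204 over all peaks. Among the glycolytic genes gpd-2 and gpd-3 share a peak and are near-identical copies, and F57B10.3, the locus name of ipgm-1, was listed at 2 peaks, of 6.76-fold and 3.15-fold. None of these differences was tested, since every value comes from the same pair of libraries.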

How the data were processed

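The authors deposited 1 list of peaks, called with MACS 1.4.2 on the antibody library against the no-antibody library, per the file headers. Per the submitters' processing notes BWA 0.7.5 and Picard were also used. Per the file headers the cutoff on p was 1e-05, fragments were taken as 200 bp and at most 1 tag per position was kept, which removed 40% of antibody tags and 20.3% of control tags. Deposited values were tag counts per peak, a fold (ratio) enrichment, a score, a false discovery rate in percent, and a gene name by a method not given in the sources used here. The heading of the score column was lost in the deposited file, and its meaning was read from its place and its smallest value. The 2 libraries sat in different project folders per the file headers, so the effects of antibody and project cannot be told apart.

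From these, names were split, cleaned of comments and matched without letter case to symbols and locus names of the RefSeq gene table (WBcel235) on the same chromosome, with Python 3.11.15 and pandas 2.3.3. That table has no older symbols, so mdh-1 (as mdh-2) and gei-7 (as icl-1), and 3 names of oxidative phosphorylation genes, were matched by hand after the list was seen. Of 925 matched names of protein-coding genes, 923 ran in the order of the gene table along their chromosomes, the 12 peaks of the wider list among them. The order check was also run on simulated names that held every gene in order, apart from a few moved far away. Named genes here lie further apart, so that run cannot show whether a name misplaced inside an interval would be found. The text describes all 10 genes, with or without a peak, and gives values for the genes of the wider list that had one. The genes and lists were chosen with earlier results of these data known. No test was made, and the planned search for promoter motifs was not run because no sequence was used here.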

Additional observations from a re-analysis of the deposited data

How the results depend on the processing

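No paired analysis was possible because there was only 1 library with antibody and 1 without, so none could be omitted. The settings with older names matched by hand and with gene order required were chosen after seeing the data. The counts move with the strictness of the list and with the names accepted. The share over all protein-coding nuclear genes was 4.53% with names of the gene table only. It was not computed for the stricter settings, under which fewer genes of any kind are named. With names of the gene table only, 5 of the 10 genes, 10 of 41 wider-list genes, 5 of 8 steps, 11 glycolytic and 9 oxidative phosphorylation genes were at a peak. With current symbols only these were 3 genes, 5 wider-list genes, 3 steps and 6 glycolytic genes. Counting the peaks of at least the median fold gave 2 genes, 4 wider-list genes, 2 steps, 9 glycolytic and 4 oxidative phosphorylation genes. The counts for peaks of at least the median score were 3, 6, 2, 9 and 5. At a rate of false discoveries of at most 5% they were 0, 0 and 0, with 3 glycolytic and 1 oxidative phosphorylation gene; few peaks remain there by construction. The median rank of the 5 peaks was 642 by fold, 120 by tags, 702 by tags per kb and 314 by score. Of 47 values under other settings, 28 stayed within 1.5 times or 1 SD, and 19 did not. Why the ranks by fold and tags differ was not tested.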
